A study of Mus musculus with 6 samples.

Results

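CXC chemokines are small secreted proteins, named for a pair of cysteines set apart by a single residue, that direct the movement of leukocytes through G protein-coupled receptors. The 9 genes described here are Cxcl1, Cxcl2, Cxcl3, Cxcl9, Cxcl10, Cxcl11, Cxcl12, Cxcl14 and Cxcl16. They were taken by symbol from the 26778 genes of the deposited expression table, and each symbol matched a single row. They were grouped by receptor into 3 CXCR2 ligands (Cxcl1, Cxcl2, Cxcl3), 3 CXCR3 ligands (Cxcl9, Cxcl10, Cxcl11) and 3 ligands of other receptors (Cxcl12, Cxcl14, Cxcl16).

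The cells were bone marrow-derived macrophages of C57BL/6 mice, which are marrow progenitors grown into macrophages in conditioned medium. The 2 groups were macrophages labelled heterozygous for Flt1 (Flt1+/-, n = 3 libraries) and wild type macrophages (Flt1+/+, n = 3 libraries). Flt1 encodes VEGF receptor 1, a tyrosine kinase receptor that monocytes and macrophages carry. At day 7 of culture both groups were placed in starvation medium at 2% oxygen for 6 h, so the comparison is between genotypes under starvation and low oxygen, and no cells in full medium or room air were analysed here. The sources used here do not give the mutant allele or the age and number of the mice.

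Macrophages are a main source of CXC chemokines in injured and infected tissue. CXCR2 ligands carry a glutamate-leucine-arginine motif before the first cysteine and draw neutrophils out of the blood. Their genes are switched on within hours by NF-kB, the transcription factor downstream of Toll-like and TNF receptors, and their mRNAs are short-lived. CXCR3 ligands draw activated T cells and natural killer cells and are known as interferon-induced genes. Cxcl12 is the CXCR4 ligand that holds haematopoietic cells in the marrow, Cxcl14 is a tissue-resident chemokine whose receptor is less settled, and Cxcl16 is a membrane-bound CXCR6 ligand that also takes up oxidised lipoprotein.

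The promoters of the CXCR2 ligands are shown because Cxcl1 and Cxcl2 gave the differences between genotypes described below, and that of Cxcl10 is shown as the most abundant CXCR3 ligand transcript. The stretches were read from RefSeq promoters of build GRCm38.p6 and are written in the direction of transcription. Those of Cxcl1 (chr5:90891095-90891214, + strand), Cxcl2 (chr5:90903749-90903868, + strand) and Cxcl3 (chr5:90785951-90786070, + strand) run from 150 to 31 bases before the transcript start. That of Cxcl10 (chr5:92348920-92349119, - strand) runs from 230 to 31 bases before it. Capitals mark matches to the motif GGANTTTCC, of NF-kB type, or to GAAANNGAA, of interferon response type, on either strand.
Cxcl1: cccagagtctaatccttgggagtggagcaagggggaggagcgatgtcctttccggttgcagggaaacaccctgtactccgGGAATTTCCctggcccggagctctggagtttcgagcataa
Cxcl2: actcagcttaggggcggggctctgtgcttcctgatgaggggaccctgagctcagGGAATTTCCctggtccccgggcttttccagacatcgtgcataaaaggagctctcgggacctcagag
Cxcl3: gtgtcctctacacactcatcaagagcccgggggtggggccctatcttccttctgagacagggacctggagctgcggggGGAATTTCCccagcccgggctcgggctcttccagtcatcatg
Cxcl10: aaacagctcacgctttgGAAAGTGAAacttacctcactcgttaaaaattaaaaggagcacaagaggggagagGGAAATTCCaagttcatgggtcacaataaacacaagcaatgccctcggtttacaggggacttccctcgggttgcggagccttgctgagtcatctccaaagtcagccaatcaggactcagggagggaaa

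The 7 members that matched the promoter table were searched from 250 bases before to 50 bases after the start. The NF-kB type motif GGANTTTCC was present in Cxcl1, Cxcl2 and Cxcl3 on the strand of the gene, starting 70, 96 and 72 bases before the transcript start. It was also present in Cxcl10, on the opposite strand, 158 bases before the start. Of 32851 promoters of the same length, 412 (1.25%) held it on either strand. The interferon response type motif GAAANNGAA was present in Cxcl9, Cxcl10 and Cxcl14, and in 8.56% of all promoters. The letters TATAAA were found 30 bases before the start in Cxcl3 and 195 bases before it in Cxcl9, and in 13.6% of all promoters. No pair of these matches overlapped. Cxcl12 held none of the 3 motifs, and Cxcl11 and Cxcl16 were not among the matched promoters. Other spellings of NF-kB type sites were not searched, so a promoter may hold more of them than are marked. A match describes the letters of the promoter and is not evidence of binding in these cells.

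**Figure D1:**
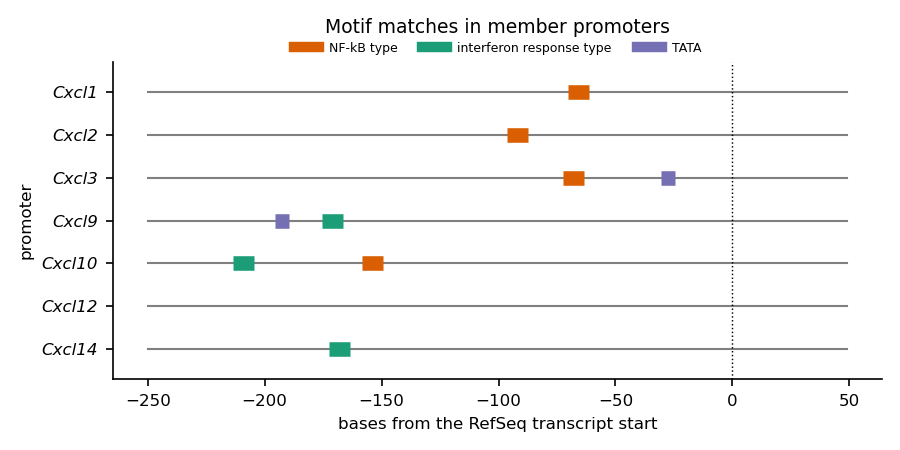
Positions of the 3 motifs in the 7 matched member promoters, as bases from the RefSeq transcript start (x axis; dotted line at the start), with 1 row per gene. The NF-kB type match lies 70 to 96 bases before the start in the CXCR2 ligands and 158 bases before it in Cxcl10.

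The deposited table gives each gene's mean normalized count per group, which is the mean over libraries of reads divided by a size factor that stands for depth. Whole reads per library were recovered from these means for 26247 genes (98.0%), all 9 members among them, with 13780975 to 22499033 recovered reads per library. The libraries of each group are lettered A, B and C by falling size factor, and the letters are not tied to the replicate numbers of the labels. Flt1 itself had 17.1, 12.9 and 8.19 normalized counts in Flt1+/- libraries, against 3.70, 10.3 and 6.04 in Flt1+/+ libraries, and the authors' deposited table did not call it (log2 fold change 0.30, SE 0.24, adjusted p = 0.641), so its level did not check the genotype labels. The mitochondrial transcript mt-Co2 stood at 0 in libraries B and C of Flt1+/- and library C of Flt1+/+ and was counted in the other 3 libraries, and values with this split as a term are given beside the CXC chemokines and gene lists whose limma calls it changed. Neutrophil markers moved with genotype: all 8 of the 12 that had an adjusted p were higher in the authors' deposited table, and their summed level was 3094 to 4050 normalized counts in Flt1+/- libraries, against 154 to 188 in Flt1+/+ libraries. limma called 7 of the 8 higher, and 6 with the mt-Co2 split as a term. Over all genes tested, 2.51% were called higher in the authors' deposited table and 0.811% in limma. The early granulocyte genes on the list were near 0 in both genotypes and had no adjusted p: Elane, Prtn3 and Ctsg averaged 0.663, 2.36 and 0.815 normalized counts in Flt1+/- libraries and were at 0 in every Flt1+/+ library, while Mpo averaged 3.09 in Flt1+/- and 4.96 in Flt1+/+. Of 12 macrophage marker rows, 4 were lower in the authors' deposited table (Cd68, Csf1r, C1qb and Mrc1) and 0 higher. Reads were recovered for 6 of the rows, without Cd68 and Csf1r, so limma could not test those genes. Of these 6 rows limma called 1 lower, or 2 with the split as a term. The share of all genes called lower was 3.52% in the authors' deposited table and 1.33% in limma. The part of these cell type markers in the results below was not tested. In bulk RNA, fewer cells of a type and less RNA per cell cannot be told apart.

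The CXCR2 ligands gave the differences between genotypes that passed the authors' test: Cxcl1 and Cxcl2 fell in Flt1+/- macrophages, and Cxcl3 did not pass. That is 2 of 3 called lower, where 3.52% of all genes with an adjusted p were called lower in the authors' deposited table. Cxcl2, the macrophage inflammatory protein that recruits neutrophils, had 171, 203 and 139 normalized counts in Flt1+/- libraries A, B and C, against 601, 1211 and 1546 in Flt1+/+ libraries A, B and C. Every Flt1+/- library lay below every Flt1+/+ library, and the wild type libraries were spread over 2.57-fold while the heterozygous ones were spread over 1.46-fold. The means were 171 ± 31.8 in Flt1+/- and 1120 ± 479 in Flt1+/+ (SD, n = 3 each), so the wild type mean was 6.54 times the heterozygous mean. The log2 fold change in the authors' deposited table was -1.94 (SE 0.23, adjusted p = 2.22e-14), nearer 0 than the log2 ratio of the group means, -2.70. On the recovered libraries, limma gave a log2 fold change of -2.61 (95% interval -3.42 to -1.81, adjusted p = 0.0188). The reads behind these values were 516 in Flt1+/- and 3486 in Flt1+/+.

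The call on Cxcl2 in limma did not hold without some of the libraries. It was kept without Flt1+/+ library A (limma adjusted p = 0.00650) and without Flt1+/- library B (0.0392). It was lost without Flt1+/- library A (limma adjusted p = 0.0598), Flt1+/- library C (0.0816), Flt1+/+ library B (0.102) or Flt1+/+ library C (0.0650). The log2 fold change stayed between -3.01 and -2.33 over the 6 omissions. Within the libraries that had mt-Co2 reads the log2 ratio of Cxcl2 was -2.40, and within those that had none it was -3.17.

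Cxcl1, the neutrophil attractant first known in mouse as KC, had 1.63, 6.96 and 6.83 normalized counts in Flt1+/- libraries, against 25.9, 37.3 and 55.3 in Flt1+/+ libraries. The groups did not overlap, and all 3 Flt1+/- libraries were at a few reads, with 14 reads in total against 123 in Flt1+/+. The means were 5.14 ± 3.04 in Flt1+/- and 39.5 ± 14.8 in Flt1+/+ (SD, n = 3 each). The authors' deposited table gave a log2 fold change of -1.11 (SE 0.25, adjusted p = 6.02e-04). limma gave -2.82 (95% interval -4.12 to -1.52) with an adjusted p of 0.0560, which is not past the threshold of 0.05, and 0.0220 once the mt-Co2 split was a term in the fit. Without any single library the limma adjusted p lay between 0.0646 and 0.213.

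Cxcl3, the third CXCR2 ligand of the cluster, had 10.6, 11.9 and 6.83 normalized counts in Flt1+/- libraries, against 11.1, 24.2 and 57.3 in Flt1+/+ libraries. Flt1+/+ library A lay within the range of the Flt1+/- libraries, so the groups overlapped, and the wild type libraries were spread over 5.17-fold. The log2 fold change in the authors' deposited table was -0.55 (SE 0.25, adjusted p = 0.205), and limma gave -1.31 (95% interval -2.71 to 0.09, adjusted p = 0.327). Library A was the lowest and library C the highest Flt1+/+ library for all 3 CXCR2 ligands. Cxcl2 and Cxcl3 share 126 stretches of 50 bases, which is 5.84% of those in Cxcl2 and 3.51% of those in Cxcl3, so reads from these stretches could be counted for either gene, and Cxcl1 shared none with them.

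**Figure D2:**
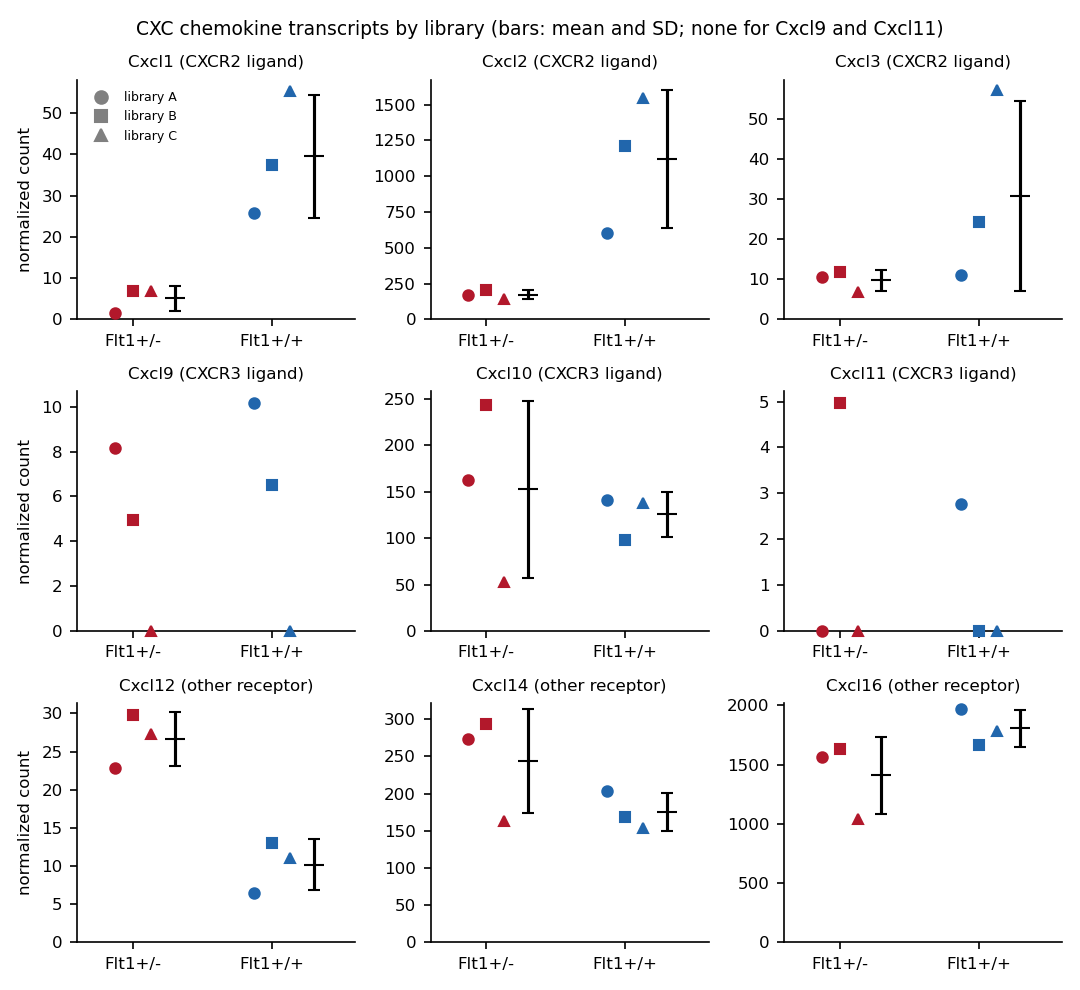
Normalized counts (y axis, linear, from 0) of the 9 CXC chemokines in each recovered library, Flt1+/- left and Flt1+/+ right, with marker shapes for libraries A, B and C. Black bars give the mean and SD of 3 libraries, except for Cxcl9 and Cxcl11, which have no bars. The Flt1+/- libraries lie below all Flt1+/+ libraries for Cxcl1, Cxcl2 and Cxcl16 and above them for Cxcl12.

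The CXCR3 ligands gave no call in either direction in the authors' deposited table or in limma, and only Cxcl10 had an adjusted p; 0 of them had an unadjusted p under 0.05. Cxcl10, the interferon-induced attractant of activated T cells, had 162, 244 and 53.2 normalized counts in Flt1+/- libraries, against 141, 97.9 and 138 in Flt1+/+ libraries. The Flt1+/- libraries lay on both sides of the Flt1+/+ libraries, with library B the highest and library C the lowest of all 6. Their spread was 4.57-fold, against 1.44-fold in Flt1+/+. The means were 153 ± 95.5 in Flt1+/- and 126 ± 24.2 in Flt1+/+ (SD, n = 3 each). The log2 fold change was 0.16 (SE 0.26, adjusted p = 0.877) by the authors' deposited table. In limma it was 0.05 with a 95% interval of -1.18 to 1.28 (adjusted p = 0.977), so changes of about 2-fold either way lie within the interval. Its direction turned with a single library: without Flt1+/- library B limma gave -0.41, and without Flt1+/- library C 0.68.

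Cxcl9 and Cxcl11 were close to the detection limit in both genotypes. Cxcl9, the CXCR3 ligand most tied to interferon gamma, had 8.15, 4.97 and 0 normalized counts in Flt1+/- libraries, against 10.2, 6.53 and 0 in Flt1+/+ libraries, from 15 and 18 reads in all. Library C of each group was the one at 0. Cxcl11 had 0, 4.97 and 0 normalized counts in Flt1+/- libraries, against 2.77, 0 and 0 in Flt1+/+ libraries, from 5 and 3 reads. A difference in either gene was not detectable at this depth, and the sign of each log2 ratio turned when single libraries were left out. The bodies of Cxcl10 and Cxcl11 lie inside Art3, which is on the opposite strand. Whether the authors' counting used strand is not given in the sources used here, so reads of Art3 cannot be told apart from reads of these genes.

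The ligands of other receptors gave no call in the authors' deposited table or in limma, and 1 of the 3, Cxcl12, had an unadjusted p under 0.05 in each. Cxcl16, the transmembrane CXCR6 ligand, had 1565, 1632 and 1039 normalized counts in Flt1+/- libraries, against 1973, 1667 and 1782 in Flt1+/+ libraries. The groups did not overlap, although the highest Flt1+/- library and the lowest Flt1+/+ library were nearly level. The log2 fold change was -0.31 (SE 0.17, adjusted p = 0.378) in the authors' deposited table, and limma gave -0.38 (95% interval -0.81 to 0.05, adjusted p = 0.350). Zmynd15, a zinc finger gene, overlaps 552 bases of Cxcl16 on the opposite strand.

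Cxcl12, the CXCR4 ligand, had 22.8, 29.8 and 27.3 normalized counts in Flt1+/- libraries, against 6.47, 13.1 and 11.1 in Flt1+/+ libraries. All Flt1+/- libraries lay above all Flt1+/+ libraries. The means were 26.6 ± 3.54 in Flt1+/- and 10.2 ± 3.38 in Flt1+/+ (SD, n = 3 each), a 2.61-fold difference that did not pass the test in the authors' deposited table (log2 fold change 0.65, SE 0.26, adjusted p = 0.125) or in limma (1.35, 95% interval 0.50 to 2.19, adjusted p = 0.128). Marrow stromal cells are the best known source of Cxcl12, and the 10 fibroblast and stromal markers summed to 797 to 1327 normalized counts in Flt1+/- libraries, against 614 to 929 in Flt1+/+ libraries. Of the 7 with an adjusted p, 1 (Acta2) was higher and 0 lower in the authors' deposited table, against 2.51% and 3.52% of all genes. Thy1 was at 0 in every Flt1+/- library. The part of these markers in the Cxcl12 values was not tested.

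Cxcl14 had 273, 294 and 164 normalized counts in Flt1+/- libraries, against 203, 169 and 154 in Flt1+/+ libraries. Flt1+/- library C lay within the Flt1+/+ range and the other Flt1+/- libraries above it. The log2 fold change was 0.38 (SE 0.21, adjusted p = 0.392) in the authors' deposited table and 0.44 (95% interval -0.15 to 1.02, adjusted p = 0.431) in limma.

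Of the 7 members with an adjusted p, the authors' deposited table called 2 lower and 0 higher, where 3.52% of the 15789 genes with an adjusted p were called lower and 2.51% higher. In the limma fit 1 of 7 members was called, lower, and 0 higher, where 2.14% of 15037 genes were called, 1.33% lower and 0.811% higher. Recovered libraries did not overlap for 4 of the 7 members in that fit, 3 lower and 1 higher, against 23.6% of all genes in it, 12.3% lower and 11.3% higher. The median deposited log2 fold change was -1.11 over the 3 CXCR2 ligands and 0.38 over the 3 ligands of other receptors, and it was -0.01 over all genes tested. Both called members were CXCR2 ligands, but the difference in fold change between receptor groups was not tested. The ratio of Cxcl2 to Cxcl10 normalized counts was 1.06, 0.833 and 2.62 in Flt1+/- libraries, against 4.25, 12.4 and 11.2 in Flt1+/+ libraries, a description of 2 members that is free of the scaling between libraries.

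Divided by exon length, the order of the members changed between genotypes. In Flt1+/- libraries Cxcl16 had the highest mean normalized count per kilobase of exon, at 467, followed by Cxcl14 at 133, Cxcl2 at 82.7 and Cxcl10 at 67.9. In Flt1+/+ libraries Cxcl16 stood at 598 and Cxcl2 next at 541, followed by Cxcl14 at 96.0 and Cxcl10 at 55.8. The library ranges of Cxcl16 (552 to 653 per kilobase) and Cxcl2 (291 to 748) overlapped in Flt1+/+, so their order is within the spread. In Flt1+/- the ranges of Cxcl14, Cxcl2 and Cxcl10 overlapped, from 89.7 to 161 for Cxcl14, from 67.3 to 98.0 for Cxcl2 and from 23.6 to 108 for Cxcl10. The remaining members were far lower on this scale. In Flt1+/- they were Cxcl12 at 3.26 per kilobase, Cxcl3 at 2.80, Cxcl1 at 2.74, Cxcl9 at 1.45 and Cxcl11 at 0.437. In Flt1+/+ they were Cxcl1 at 21.1, Cxcl3 at 8.83, Cxcl9 at 1.85, Cxcl12 at 1.25 and Cxcl11 at 0.244. Among these low members every pair of neighbours in the order overlapped in Flt1+/-. In Flt1+/+ all neighbours overlapped except Cxcl12, at 0.792 per kilobase or more in every library, and Cxcl11, at 0.731 or less. Apart from that pair, the order of neighbouring low members is within the spread. Some members further apart in the order did not overlap. In Flt1+/+ Cxcl1 (13.8 to 29.5 per kilobase) lay above Cxcl9 (0 to 3.37), and in Flt1+/- Cxcl12 (2.79 to 3.65) lay above Cxcl9 (0 to 2.70).

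Of 6 other CXC ligand genes looked up, 4 had a row and 3 had an adjusted p. Of the 3, 1 was called lower and 0 higher in the authors' deposited table, against 3.52% and 2.51% of all genes. The gene called lower was Cxcl5, a further CXCR2 ligand, with 8.97, 4.97 and 2.73 normalized counts in Flt1+/- libraries, against 14.8, 28.0 and 43.3 in Flt1+/+ libraries. The groups did not overlap, and the authors' deposited table gave a log2 fold change of -0.79 (SE 0.25, adjusted p = 0.0310), while the limma adjusted p was 0.113. Pf4, platelet factor 4, had 671, 918 and 1088 normalized counts in Flt1+/- libraries, against 857, 1887 and 2467 in Flt1+/+ libraries. Its groups overlapped, and the authors' deposited table did not call it (log2 fold change -0.67, adjusted p = 0.0676). Ppbp, the precursor of a platelet CXCR2 ligand, had 75.8, 52.7 and 28.7 normalized counts in Flt1+/- libraries, against 47.2, 22.4 and 25.1 in Flt1+/+ libraries, and was not called in the authors' deposited table (0.38, adjusted p = 0.534). Cxcl13, a B cell attractant, was below the level given an adjusted p, with 4.08, 2.98 and 4.10 normalized counts in Flt1+/- libraries, against 20.3, 8.39 and 8.05 in Flt1+/+ libraries.

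Among 8 CXC receptors, 4 had an adjusted p in the authors' deposited table, of which 1 was called higher and 2 lower. For all genes with an adjusted p the shares were 2.51% higher and 3.52% lower. Cxcr4, the receptor of Cxcl12, had 3212, 3266 and 3135 normalized counts in Flt1+/- libraries, against 5150, 5252 and 5312 in Flt1+/+ libraries. Each genotype was tightly grouped and the groups lay far apart. Cxcr4 fell by 0.69 on the log2 scale (SE 0.09, adjusted p = 2.26e-12) in the authors' deposited table and by 0.71 in limma (adjusted p = 0.00721), where 4 of 6 fits without a library kept the call. Cxcr6, the receptor of Cxcl16, had 17.1, 16.9 and 21.8 normalized counts in Flt1+/- libraries, against 41.6, 51.3 and 48.3 in Flt1+/+ libraries. It was called lower in the authors' deposited table (log2 fold change -0.84, SE 0.25, adjusted p = 0.0169) and had an adjusted p of 0.0531 in limma.

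Cxcr2, the receptor of Cxcl1, Cxcl2, Cxcl3 and Cxcl5, went the other way from its called ligands. It had 35.1, 33.8 and 27.3 normalized counts in Flt1+/- libraries, against 8.32, 5.60 and 13.1 in Flt1+/+ libraries, with no overlap. The authors' deposited table called it higher (log2 fold change 0.87, SE 0.26, adjusted p = 0.0168), and the limma adjusted p was 0.0674. Cxcr2 is a neutrophil receptor, and the neutrophil markers given above were higher in the same libraries; their part in its level was not tested. Cxcr3, the receptor of Cxcl9, Cxcl10 and Cxcl11, had 62.8, 90.4 and 80.5 normalized counts in Flt1+/- libraries, against 95.2, 78.3 and 71.4 in Flt1+/+ libraries, which overlapped (adjusted p = 0.958 in the authors' deposited table).

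**Figure D3:**
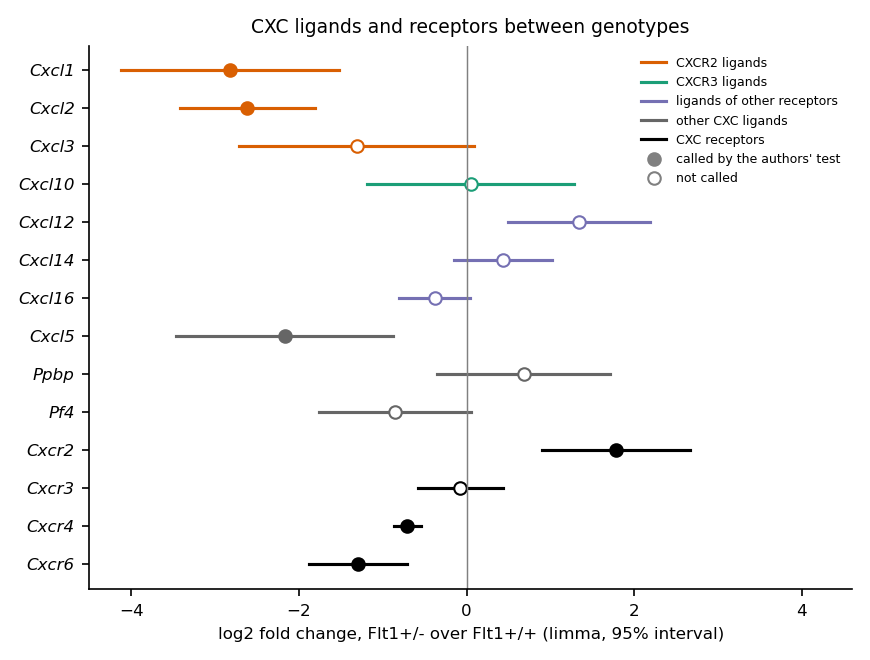
Log2 fold changes of Flt1+/- over Flt1+/+ (x axis) for the 7 CXC chemokines in the limma fit, 3 other CXC ligands and 4 CXC receptors. Points are limma estimates on recovered libraries, lines their 95% intervals, and filled points genes called in the authors' deposited table. Cxcl1, Cxcl2 and Cxcl5 lie left of 0 and their receptor Cxcr2 lies right of it.

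Genes of the NF-kB route and of mRNA decay, which set the level of CXCR2 ligand mRNA in macrophages, were looked up as a list of 16. Of the 15 with an adjusted p in the authors' deposited table, 4 were called lower and 1 higher, where 3.52% of all genes were called lower and 2.51% higher. The list's median log2 fold change was -0.28, against -0.01 over all genes tested. Tnf, the cytokine that activates NF-kB, had 969, 1092 and 835 normalized counts in Flt1+/- libraries, against 1657, 1786 and 1985 in Flt1+/+ libraries. Nfkbia, the inhibitor that NF-kB itself induces, had 1591, 2333 and 1618 normalized counts in Flt1+/- libraries, against 3050, 3115 and 3715 in Flt1+/+ libraries. Neither gene's groups overlapped. The log2 fold changes in the authors' deposited table were -0.83 for Tnf (SE 0.14, adjusted p = 4.22e-07) and -0.74 for Nfkbia (SE 0.17, adjusted p = 4.64e-04).

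The remaining called members of the route were feedback regulators of NF-kB. Tnfaip3, a deubiquitinase that ends the signal, averaged 1995 ± 163 normalized counts in Flt1+/- and 2901 ± 104 in Flt1+/+ (SD, n = 3 each), with an adjusted p = 2.09e-04 from the authors' deposited table. Nfkbie, a further inhibitor, averaged 296 ± 106 in Flt1+/- and 612 ± 123 in Flt1+/+ (SD, n = 3 each; adjusted p = 0.00502 in the authors' deposited table). Nfkbiz, a nuclear cofactor, was called higher, with the authors' means of 29745 in Flt1+/- and 24432 in Flt1+/+ in the authors' deposited table (log2 fold change 0.27, adjusted p = 0.0477). limma called 2 of the 14 members in its fit, Tnf and Tnfaip3, both lower, and 0 to 4 lower without a single library. Over all genes in that fit 1.33% were called lower. With the mt-Co2 split as a term limma called 3 lower, with Nfkbia added (adjusted p = 0.0347, against 0.0565 without the term). Zfp36, which binds and destabilises Cxcl2 mRNA, was not called (log2 fold change -0.47, adjusted p = 0.188 in the authors' deposited table). The subunit genes Nfkb1, Nfkb2, Rela and Relb were also uncalled there, at log2 fold changes of -0.08, -0.27, -0.25 and -0.25. Rel, a further subunit, was uncalled at 0.26, with every Flt1+/- library above every Flt1+/+ library. Il1a and Il1b, at -0.28 and -0.27, and Nfkbib and Zc3h12a, at -0.41 and -0.32, were uncalled as well.

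Genes of the interferon route, which drives CXCR3 ligands, gave no call among the 14 of 16 with an adjusted p, and their median log2 fold change was -0.03 by the authors' deposited table. In limma 0 of 14 were called, 1 had an unadjusted p under 0.05 in each test, and 1 was lower once the mt-Co2 split was a term. Jak1, a kinase bound to interferon receptors and the most abundant gene of the list, averaged 10420 ± 768 normalized counts in Flt1+/- and 10702 ± 298 in Flt1+/+ (SD, n = 3 each). Of 10 interferon gamma target genes, 1 was called lower in the authors' deposited table, Cd274, the checkpoint ligand PD-L1 (log2 fold change -0.34, adjusted p = 0.0110), and 0 higher, with a median of -0.09. By the same test 3.52% of all genes were called lower and 2.51% higher. In limma 0 of the 9 target genes in its fit were called, where 2.14% of all genes were called. Cd274 was not among the 9, so its call has no second test. Whether the NF-kB and interferon lists differ from each other was not tested.

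**Figure D4:**
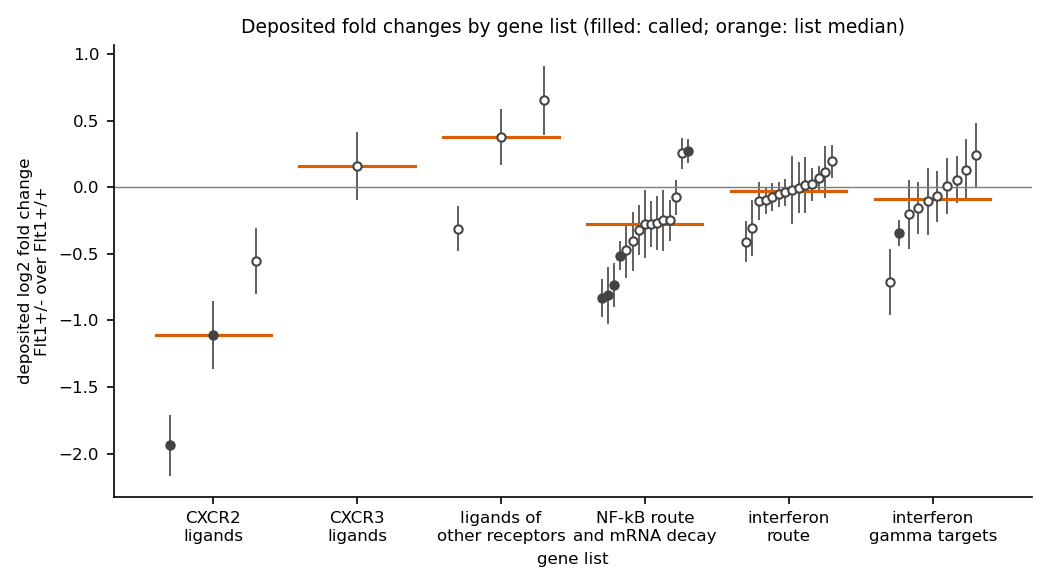
Log2 fold changes of Flt1+/- over Flt1+/+ in the authors' deposited table (y axis) for each gene with an adjusted p in 6 gene lists. Points are genes, thin lines the deposited standard error, filled points called genes and orange bars list medians. The medians are -1.11 for CXCR2 ligands, -0.28 for the NF-kB route and mRNA decay and -0.03 for the interferon route.

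Among 5 proteases with an adjusted p that cut CXC chemokines, 1 was called lower and 0 higher in the authors' deposited table. Over all genes with an adjusted p, 3.52% were called lower. The called protease was Mmp12, the macrophage elastase that cleaves CXCR2 ligands, with 598, 480 and 491 normalized counts in Flt1+/- libraries, against 726, 850 and 779 in Flt1+/+ libraries. Its groups did not overlap, and its log2 fold change was -0.53 (SE 0.14, adjusted p = 0.00602) in the authors' deposited table, with an adjusted p of 0.0715 in limma.

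The genes whose profile over the 6 libraries was most like that of Cxcl2 were taken by Pearson's r of log2(normalized count + 1) among 10444 genes with a mean of at least 50. They were Ccl3, a CC chemokine of macrophages (r = 0.997), Errfi1, an inhibitor of EGF receptor signalling (0.997), Fam71a (0.996), Rgs1, a brake on chemokine receptor signalling (0.995), and Zbtb10, a zinc finger repressor (0.995). The values share the 2 genotype groups and the same 6 libraries, so r is a description. All 5 genes were called lower in the authors' deposited table, which their choice by likeness to Cxcl2 largely set in advance. Ccl3 had a mean of 2517 normalized counts in Flt1+/- and 5493 in Flt1+/+, and Rgs1 459 in Flt1+/- and 1595 in Flt1+/+. Among members, r with Cxcl2 was 0.64 for Cxcl16, 0.05 for Cxcl10 and -0.59 for Cxcl14. The genes most like Cxcl10 were Ccdc159 (r = 0.993), Ric8b (0.988), Hist1h4i (0.981), Trnp1 (0.979) and Hist1h2bc (0.977). The authors' deposited table called none of them, which again largely follows from the choice, as Cxcl10 was not called. Cxcl10 itself had r of 0.74 with Cxcl14 and 0.71 with Cxcl16.

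**Figure D5:**
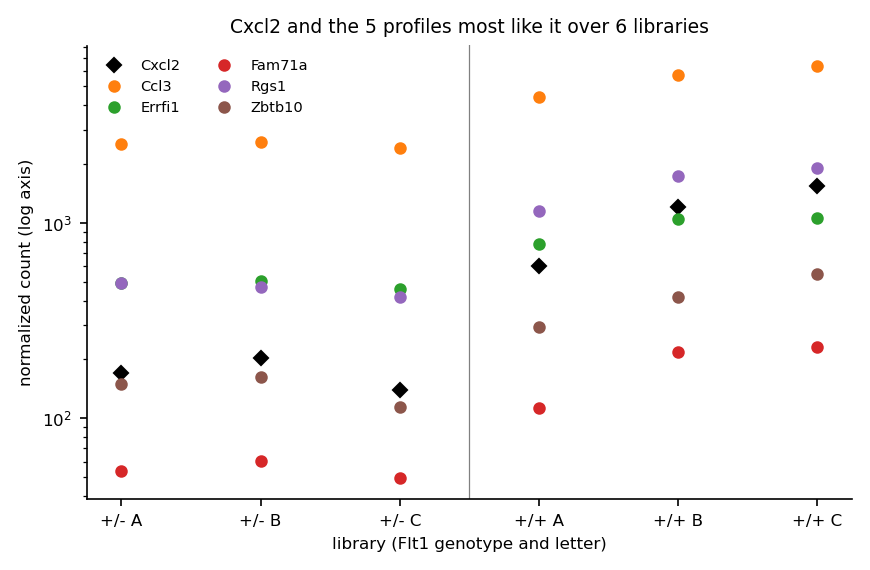
Normalized counts (y axis, log scale) of Cxcl2 and the 5 genes with the most similar profile in the 6 recovered libraries (x axis; +/- left, +/+ right). The Flt1+/- libraries of Cxcl2 lie between 139 and 203 and its Flt1+/+ libraries between 601 and 1546. Each of the other genes is also lower in all Flt1+/- libraries, which largely follows from their choice by likeness to Cxcl2.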

How the data were processed

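Total RNA was depleted of rRNA and made into stranded sequencing libraries, per the labels' protocols. FastQC, TopHat 1.0.0, Cufflinks and build mm10 are named, per the submitters' processing notes. What each did, which program counted reads and whether it used strand is not given in the sources used here. The deposited table holds, per the file headers, the authors' mean signal (normalized counts) per group. It also holds the authors' deposited log2 fold changes, standard errors, the score (fold change over its error) and p-values; an adjusted p is missing for 10989 genes and stayed missing. A gene was called at an adjusted p of 0.05 and a mean of at least 1.

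Each deposited group mean adds up 3 whole read counts, each times a step set by its size factor. Steps and whole reads were solved jointly, uniquely for 26247 genes; of the simulated Flt1+/- means 26296 came back right and 0 wrong, and of the simulated Flt1+/+ means 26313 right and 0 wrong. limma 3.58.1 (R 4.3.3, trend) was run on log2(normalized count + 1) for the 15037 genes with a mean of at least 10, which understates changes of low genes. On simulated counts for these genes, all given a dispersion of 0.05, it recovered 50% of the 2-fold changes and 97% of the 4-fold changes, and called 6 genes that were left unchanged; the shares hold for that dispersion and say nothing of genes that vary more. The fixed design foresaw tests on samples, while the table holds group means, so the authors' test is the main one. Alternatives left out each library, added the mt-Co2 split, or changed scaling and filter. A log2 ratio is of group means with a pseudocount of 1.

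Members and gene lists were chosen with earlier results of these data known. Named genes were the members, the called members of each list, a few uncalled ones of stated role, and the 5 genes most like Cxcl2 and Cxcl10. The uncalled list genes were chosen after their values were seen. Some list genes are not reported here. Positions and exon lengths came from GENCODE M21. The labels do not say that libraries came from separate animals, so p-values reflect how these libraries vary, which may be technical. An exact permutation test of 3 against 3 cannot give a p under 0.1, so none was run.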

Additional observations from a re-analysis of the deposited data

How the results depend on the processing

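The authors' test called 953 genes, limma on recovered libraries called 322, and limma with the mt-Co2 split called 464. Leaving out a library took the limma count to between 42, without Flt1+/+ library B, and 333, without Flt1+/- library B. The other omissions gave 134 and 64 genes without Flt1+/- libraries A and C, and 100 and 47 without Flt1+/+ libraries A and C. Of the CXC chemokines, the authors' test called 2, limma 1, and limma with the mt-Co2 split 2; without a single library limma called 0 to 1. Fewer samples enter each omission; the cause of the other shifts was not tested. A bound for the members' log2 ratios was the square root of the sum of the 2 groups' variances of log2(normalized count + 1). This bound is wider than the SD within a group, and omitting a library can hardly pass it. Of 90 alternatives for the members' log2 ratios of group means, 3 moved by more than this bound. These 3 were the authors' deposited fold changes, which lay nearer 0, and the cause was not tested: -1.11 against -2.72 for Cxcl1, -1.94 against -2.70 for Cxcl2 and 0.65 against 1.30 for Cxcl12. Among uncalled members the sign turned when single libraries were omitted: the log2 ratio ran from -0.22 to 0.69 for Cxcl10 (negative without Flt1+/- library B), from -0.91 to 0.33 for Cxcl9 and from -0.94 to 1.41 for Cxcl11. Per-million scaling shifted the median of all genes by 0.03 on the log2 scale. Count-model fits and another count normalization were not run, although the recovered reads would have allowed them. No paired analysis was possible because the columns carry no replicate numbers and recovered libraries are not tied to them. Counts of under 20 reads limit Cxcl9 and Cxcl11 in both genotypes and Cxcl1 in Flt1+/-.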

Other observations

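Of the 9 CXC chemokine genes, 6 lie on mouse chromosome 5 (build mm10), which also carries Flt1 (chr5:147561604-147726011). Cxcl3 (chr5:90786103-90789600), Cxcl1 (chr5:90891241-90893115) and Cxcl2 (chr5:90903871-90905938) form a cluster with Cxcl5, Ppbp and Pf4. Cxcl9 (chr5:92321347-92328079), Cxcl10 (chr5:92346638-92348889) and Cxcl11 (chr5:92359544-92365485) lie in a further cluster. All 6 are 55.2 to 56.8 Mb from Flt1, and they include the called Cxcl1 and Cxcl2 and the uncalled Cxcl3 and Cxcl10. The part of this shared chromosome in the results was not tested. Cxcl12 is on chromosome 6, Cxcl16 on chromosome 11 and Cxcl14 on chromosome 13. Of 7 dendritic cell markers, 4 had an adjusted p and 1 of these, Ccr7, was called lower in the authors' deposited table; their summed level was 79.5 to 105 normalized counts in Flt1+/- libraries, against 135 to 152 in Flt1+/+ libraries. Megakaryocyte markers, looked up because Pf4 and Ppbp are platelet chemokines, summed to 146 to 300.2 normalized counts in Flt1+/- libraries, against 265 to 348 in Flt1+/+ libraries. Of the 3 with an adjusted p, Gp1ba was called higher in the authors' deposited table and 0 were called lower. Gp9 (mean 119 normalized counts in Flt1+/- and 229 in Flt1+/+) and Itga2b (24.4 and 31.6) went the other way and were not called. Endothelial markers with an adjusted p numbered 5, of which Vwf was called higher and 0 lower in the authors' deposited table, and limma called 0. The deposited log2 fold change was above 0 in 3 of them and below 0 in 2. The summed level of the endothelial markers overlapped, at 5275 to 6248 normalized counts in Flt1+/- libraries and 5494 to 5949 in Flt1+/+ libraries. Of the B cell markers 1 had an adjusted p, and it was not called. Beside these marker counts, 3.52% of all genes with an adjusted p were called lower and 2.51% higher in the authors' deposited table.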
